A study of Mus musculus with 12 samples.

Results

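Hypoxia response and glycolysis genes, 37 in all, were followed over 12 Affymetrix mouse exon arrays, and 36 of the 37 were measured. The members were taken from a written list under the symbols the array uses (Pkm2, Ero1l and Gpi1 among them), each from probe sets that name 1 gene symbol. Kdm3a had no probe set under that symbol and was dropped. The other 36 rested on 629 probe sets, from 2 (Gapdh) to 36 (Gpi1 and Pfkp) per gene, and all 36 passed the filter on low values among the 20711 genes tested in the whole series.

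The RNA came from primary bone marrow cultures of female C57B/6 mice, 12 weeks old and treated with 5-FU, grown with IL3, SCF and IL6. Every culture carried Hoxa9 on an MSCV retroviral vector, so no group without Hoxa9 was measured. HOXA9+MEIS1 cells also received full-length Meis1, HOXA9+MDHD cells received Meis1 without its homeodomain, and HOXA9+MIY cells received the empty second vector. Each of the 3 conditions had 4 arrays, 2 after 4 weeks and 2 after 3 weeks, giving 6 arrays per week. The labels name the experiments of a condition as independent but do not tie week 4 arrays to week 3 arrays.

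In background terms, cells adjust to low oxygen mainly through the hypoxia-inducible factors, whose alpha subunits (Hif1a, Epas1) are hydroxylated by prolyl hydroxylases and destroyed while oxygen is plentiful. When the alpha subunits persist they bind a short core sequence in DNA and raise genes for glucose uptake, glycolysis, mitochondrial clearance, growth arrest and vessel growth. Blood stem and progenitor cells are known for a strong reliance on glycolysis, and Meis1 is known from mouse stem cells as a regulator of Hif1a.

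Values are log2 gene values, and errors after ± are standard errors of a log2 difference from limma unless stated otherwise. A gene is called where the Benjamini-Hochberg adjusted p over all 20711 genes was under 0.05. Correlations between arrays lay between 0.947 and 0.993, and the first principal component (39.5% of the variance) separated the weeks while the second (27.3%) ordered the conditions. On the second, the HOXA9+MDHD array of week 4 replicate 2 stood nearest the HOXA9+MIY arrays. Meis1 read 9.73 ± 0.091 in HOXA9+MEIS1, 9.44 ± 0.28 in HOXA9+MDHD and 6.85 ± 0.081 in HOXA9+MIY (SD, n = 4 arrays each), and Hoxa9 was not called between any pair of conditions. Mean levels of the B lymphoid list (6.96 to 7.17) and of the T and NK list (6.77 to 7.07) stayed near the 6.26 level of the filter on every array.

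The comparison of week 4 with week 3 asks how the hypoxia and glycolysis genes stood as the cultures aged. At week 4, 29 of the 36 members were higher, 1 was lower and 6 did not pass the test, with a median log2 difference of 0.66 over the members against -0.02 over all genes tested. Of all genes, 39.8% were called between the weeks, 11.7% higher and 28.1% lower. By gene value 7 members were called with at least a 2-fold rise, against 0.362% of all genes. The 7 include Adm, whose week 3 mean lay under the filter level and which rose less under a stricter filter. Without Adm 6 remain. Eno1 is among these 6, although 22 probe sets that it shares with other gene models had a median week difference of -0.02. Ddit4, Fam162a and Ankrd37 held ranks 3, 4 and 5 among the 20711 genes for the rise at week 4. All 29 risers had a positive week difference in each of the 3 conditions, and in 25 of them every week 4 array stood above every week 3 array. The risers were picked on these same arrays, and neither share was counted over all genes. The list itself was chosen with earlier results of these data known. Its values beside those of all genes are thus descriptions, not tests of an excess.

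**Figure D1:**
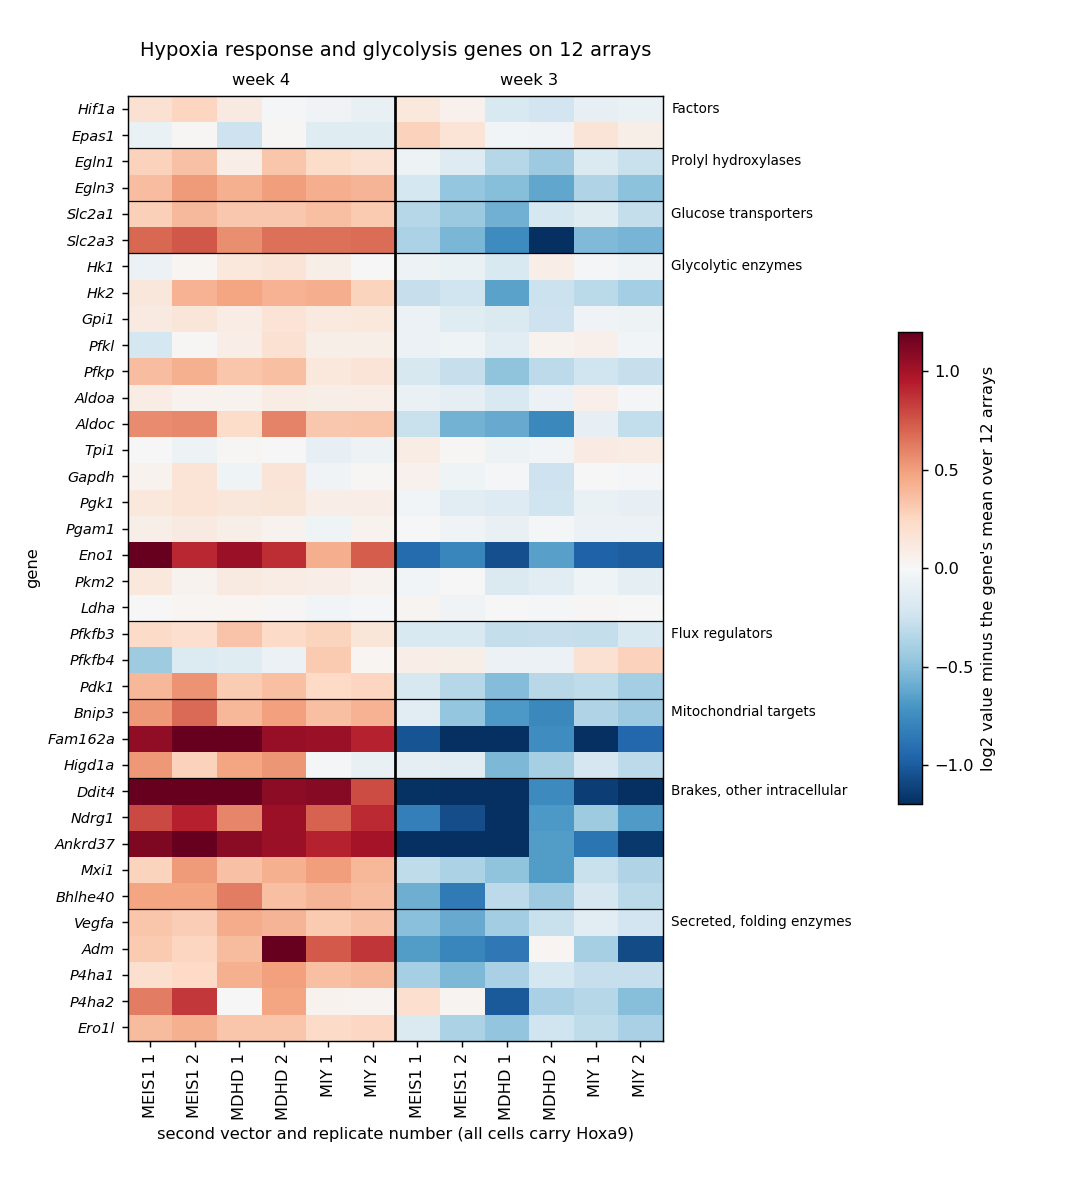
Log2 value of 36 genes on 12 arrays, each minus the gene's mean over the arrays, with week 4 arrays on the left, week 3 arrays on the right and genes ordered by role (red higher, blue lower, colours ending at 1.2). The left block is mostly red and the right block mostly blue, while Epas1 runs the other way and Ldha is nearly blank.

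Among the growth brakes and other intracellular targets all 5 measured genes were higher at week 4. Ddit4, an inhibitor of the mTORC1 growth kinase, read 9.99, 10.37 and 10.64 (lowest, median, highest of 6 arrays) at week 4, against 7.81, 8.00 and 8.44 at week 3. It was 4.96-fold higher (log2 2.31 ± 0.11, adjusted p = 1.21e-07), with the lowest week 4 array well above the highest week 3 array. Ankrd37, an ankyrin repeat protein and known target of hypoxia-inducible factor, read 10.33, 10.47 and 10.65 at week 4, against 8.11, 8.23 and 8.74 at week 3 (log2 difference 2.13 ± 0.10, 4.38-fold, adjusted p = 1.21e-07). Ndrg1, a stress-induced gene tied to differentiation, read 12.12, 12.37 and 12.56 at week 4, against 10.27, 10.78 and 11.10 at week 3 (log2 1.65 ± 0.12, 3.13-fold, adjusted p = 9.57e-07). In all 3 genes the weeks did not overlap. Bhlhe40, a transcriptional repressor, ranged over 12.24 to 12.49 at week 4 and 11.03 to 11.68 at week 3 (log2 0.90 ± 0.082, adjusted p = 3.96e-06). Mxi1, an antagonist of Myc, ranged over 9.15 to 9.39 at week 4 and 8.21 to 8.62 at week 3 (log2 0.82 ± 0.062, adjusted p = 1.30e-06). The array does list Jmjd1a, which the RefSeq table gives as a synonym of Kdm3a, a histone demethylase. It is no member under the rule, and it stood at 10.33 to 10.76 at week 4, against 9.67 to 9.86 at week 3 (log2 difference 0.75 ± 0.076, adjusted p = 7.39e-06).

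The 3 mitochondrial targets were higher too. Fam162a, a mitochondrial protein that promotes cell death in low oxygen, read 11.32, 11.45 and 11.73 at week 4, against 9.07, 9.26 and 9.65 at week 3. The difference was 2.20 ± 0.10 (4.60-fold, adjusted p = 1.21e-07), and 1.58 with no filter on dim probe sets. It was uneven within the gene: 6 of 11 probe sets had a median difference of 2.65 and the other 5 a median of 0.69. Bnip3, a receptor for the removal of mitochondria by autophagy, read 12.35, 12.45 and 12.67 at week 4, against 11.21, 11.54 and 11.85 at week 3 (log2 0.96 ± 0.070, adjusted p = 1.11e-06). The weeks were apart in both. Higd1a, a small protein of the inner mitochondrial membrane, was higher by 0.57 ± 0.10 (adjusted p = 7.39e-04), with 7.66 to 8.28 at week 4 and 7.21 to 7.63 at week 3. It rested on 5 probe sets, and with those under 7.725 left out its difference was -0.07 and not called.

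All 5 secreted factors and folding enzymes were higher at week 4. Vegfa, the main growth factor for vessels, read 10.95, 11.00 and 11.10 at week 4, against 10.04, 10.31 and 10.52 at week 3 (log2 0.72 ± 0.059, adjusted p = 2.08e-06). Adm, a peptide hormone that widens vessels, read 7.04, 7.34 and 8.00 at week 4, against 5.71, 6.06 and 6.81 at week 3, where 4 of 6 arrays lay below the filter level. Its difference by gene value was 1.25 ± 0.18 (adjusted p = 1.27e-04), with the widest standard error of the 36, and its size depended on dim probe sets. Of its 4 probe sets only the brightest passed the stricter filter, and there the difference was 0.54 (1.45-fold), still called. P4ha1 and P4ha2 encode catalytic subunits of collagen prolyl hydroxylase, and were higher by 0.70 ± 0.041 and 0.67 ± 0.12 (adjusted p = 4.56e-07 and 6.13e-04). The weeks were apart in P4ha1, with 11.37 to 11.67 at week 4 and 10.64 to 10.96 at week 3. They overlapped in P4ha2, with 8.13 to 8.98 at week 4 and 7.13 to 8.34 at week 3. Ero1l, an oxidase that forms disulphide bonds in the endoplasmic reticulum, ranged over 13.22 to 13.41 at week 4 and 12.52 to 12.82 at week 3 (log2 0.65 ± 0.044, adjusted p = 7.33e-07).

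**Figure D2:**
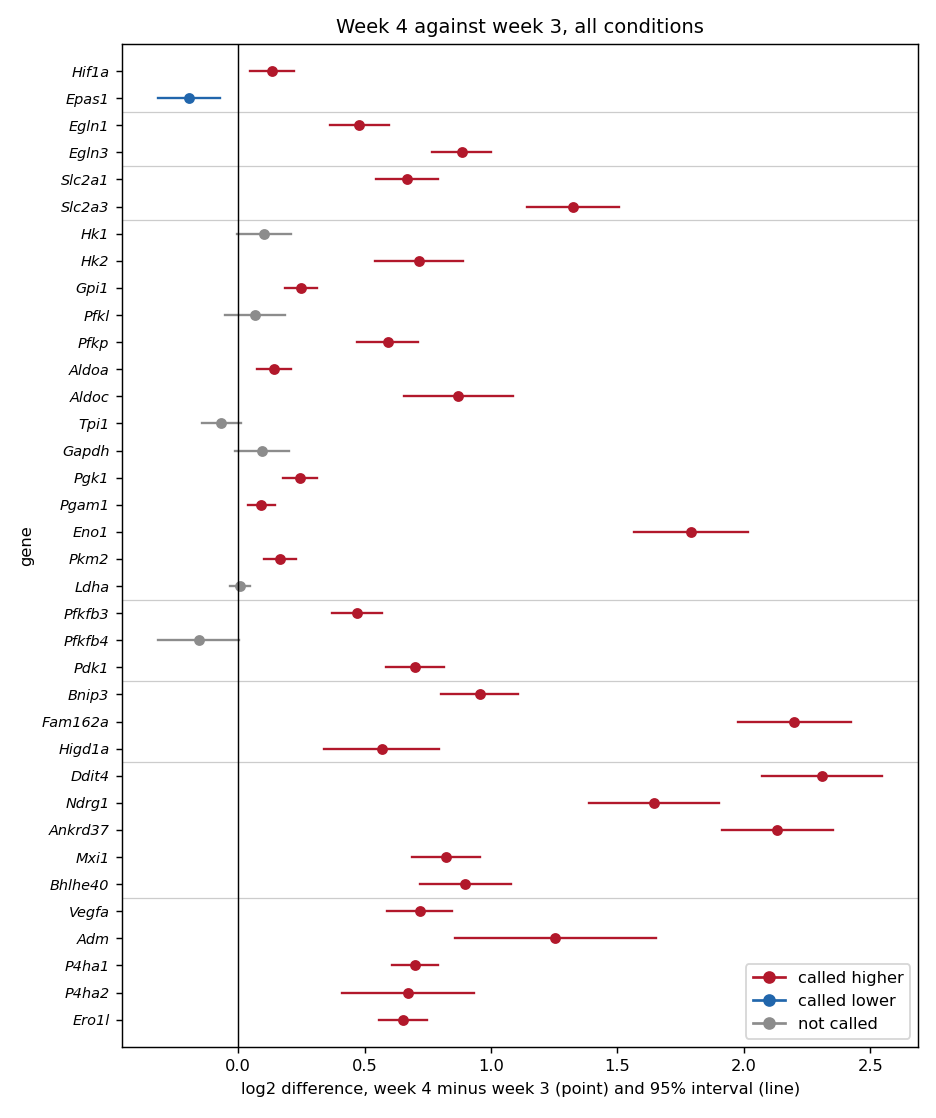
Log2 difference, week 4 minus week 3, of 36 genes ordered by role, with points for limma's estimate over 12 arrays and lines for its 95% interval. Red genes were called higher, the blue gene (Epas1) lower, and the 6 grey genes were not called. Ddit4, Fam162a and Ankrd37 lie above 2.

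The sensors and factors moved unequally. Egln1 and Egln3, the prolyl hydroxylases that mark alpha subunits for destruction and are themselves targets of the pathway, were higher at week 4 by 0.48 ± 0.054 and 0.88 ± 0.054 (adjusted p = 1.69e-05 and 5.05e-07). Egln3 read 12.70, 12.77 and 12.85 at week 4, against 11.71, 11.86 and 12.12 at week 3. Egln1 read 10.43, 10.59 and 10.70 at week 4, against 9.91, 10.13 and 10.29 at week 3, and neither gene overlapped between weeks. Hif1a was higher by 0.14 ± 0.040 (adjusted p = 0.0163), with overlapping ranges of 11.88 to 12.22 at week 4 and 11.74 to 12.09 at week 3. Epas1, the alpha subunit of the second factor, was the only member called lower (log2 -0.19 ± 0.057, adjusted p = 0.0154), with 7.46 to 7.73 at week 4 and 7.67 to 7.98 at week 3. Its call was lost under a stricter filter and under median centring, and the highest adjusted p over its alternatives was 0.0544.

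Both glucose transporters were higher at week 4. Slc2a3 read 12.97, 13.08 and 13.15 at week 4, against 11.19, 11.86 and 12.03 at week 3 (log2 1.32 ± 0.083, 2.50-fold, adjusted p = 5.43e-07). Slc2a1 read 13.16, 13.20 and 13.26 at week 4, against 12.30, 12.56 and 12.73 at week 3 (log2 0.67 ± 0.056, adjusted p = 2.57e-06). Week 4 arrays were tightly grouped in both genes and lay above all week 3 arrays.

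Of the 14 glycolytic enzymes 9 were higher at week 4, with a median log2 difference of 0.15 over the 14. At the first step, Hk2, the inducible hexokinase, read 10.20, 10.48 and 10.53 at week 4, against 9.42, 9.76 and 9.82 at week 3 (log2 0.72 ± 0.080, adjusted p = 1.65e-05), while Hk1, the constitutive one, had a difference of 0.10 ± 0.049 (adjusted p = 0.121). Hk1 was called higher under quantile normalization, median centring and cyclic loess, with differences of up to 0.29. At the phosphofructokinase step, Pfkp was higher by 0.59 ± 0.055 (adjusted p = 4.43e-06), with 11.25 to 11.54 at week 4 and 10.63 to 10.93 at week 3, and Pfkl had a difference of 0.07 ± 0.054 (adjusted p = 0.379). At the aldolase step, Aldoc was higher by 0.87 ± 0.099 (adjusted p = 1.82e-05), with 11.93 to 12.30 at week 4 and 10.94 to 11.61 at week 3. Aldoa was higher by 0.14 ± 0.031 (adjusted p = 0.00280), with overlapping ranges of 12.70 to 12.75 at week 4 and 12.47 to 12.72 at week 3. The difference within each of these pairs was not tested.

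Rises were called in 4 further enzymes. Gpi1 was higher by 0.25 ± 0.029 (adjusted p = 2.12e-05), Pgk1 by 0.24 ± 0.031 (adjusted p = 3.80e-05), Pkm2 by 0.16 ± 0.029 (adjusted p = 5.02e-04) and Pgam1 by 0.09 ± 0.025 (adjusted p = 0.0107). Gpi1 ranged over 13.37 to 13.43 at week 4 and 13.02 to 13.23 at week 3, and Pgk1 over 13.04 to 13.13 at week 4 and 12.73 to 12.94 at week 3, with no overlap in either. Pkm2 ranged over 13.01 to 13.09 at week 4 and 12.78 to 12.96 at week 3, and Pgam1 over 12.50 to 12.65 at week 4 and 12.46 to 12.55 at week 3. With the mean of its probe sets in place of the median polish, the difference of Gpi1 was 0.86. Pgam1 lost its call without the intensity trend in the test, and Aldoa lost its call with the mean of the probe sets. Tpi1 (-0.07 ± 0.035), Gapdh (0.09 ± 0.049, from 2 probe sets) and Ldha (0.01 ± 0.018) did not pass, at adjusted p = 0.160, 0.156 and 0.788. Ldha, which makes lactate and is a classic target of the pathway, read 13.64, 13.68 and 13.70 at week 4, against 13.63, 13.66 and 13.71 at week 3. The 95% interval of its difference ran from -0.03 to 0.05, so its gene value was nearly level. Its mean level ranked 14 of the 20711 genes. Of the members' 200 probe sets with a mean of 12 or more, 9.0% were at least 2-fold higher at week 4. At means of 9 to 12 it was 28.6% of 280, and at means below 9 it was 23.5% of 149. These shares pool probe sets of different genes. Whether a rise would show in full at so high a level was not tested.

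Eno1, the enolase, had the fourth largest rise of the 36 by gene value, 9.68, 10.14 and 10.62 at week 4 against 8.19, 8.30 and 8.59 at week 3 (log2 1.79 ± 0.10, 3.46-fold, adjusted p = 4.32e-07). That value comes from the 7 probe sets that name Eno1 alone. Another 22 probe sets name Eno1 together with the gene models EG103324 and EG433182 and were left out of it. Those 22 had week differences from -0.16 to 0.03, with a median of -0.02. A 2-fold rise of Eno1 was thus seen in 6 of its own 7 probe sets and in 0 of the 22 shared ones. For Aldoa, 5 probe sets shared with Aldoart1 had a median difference of 0.25.

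Of the 3 regulators of glycolytic flux 2 were higher. Pdk1, a kinase that keeps pyruvate out of the mitochondrial cycle, read 10.10, 10.19 and 10.39 at week 4, against 9.33, 9.52 and 9.66 at week 3 (log2 0.70 ± 0.053, adjusted p = 1.28e-06). Pfkfb3, which makes the activator of phosphofructokinase, was higher by 0.47 ± 0.046 (adjusted p = 5.99e-06), with 10.06 to 10.26 at week 4 and 9.63 to 9.73 at week 3. Pfkfb4, a related enzyme, had a difference of -0.16 ± 0.073 (adjusted p = 0.116), with 7.68 to 8.42 at week 4 and 8.03 to 8.38 at week 3.

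Within single genes the rise was uneven among probe sets, each of which reads a short stretch of the gene. Of the 629 probe sets 546 were higher on average at week 4, and 133 (21.1%), in 24 members, were at least 2-fold higher, against 0.61% of the 233798 named probe sets above the filter. In Gpi1, 11 of 36 probe sets were at least 2-fold higher with a median difference of 2.45, while the other 25 had a median of 0.21. The Gpi1 probe set with the largest rise read 9.46, 10.05 and 10.98 at week 4, against 7.01, 7.14 and 7.22 at week 3. Egln3 divided likewise, with 8 of 19 probe sets at a median of 2.55 and the other 11 at 0.67. In Pdk1, 5 of 19 had a median of 2.68 and the other 14 a median of 0.52. In Pkm2, 4 of 24 had a median of 1.57 and the other 20 a median of 0.14.

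In Ldha, 1 of 9 probe sets rose at least 2-fold, reading 10.85, 10.98 and 11.55 at week 4, against 8.97, 9.11 and 10.07 at week 3, while the other 8 had a median difference of -0.01. By contrast all 5 probe sets of Ddit4 and all 23 of Ndrg1 were at least 2-fold higher. The probe sets were picked by their differences, so these are descriptions with no test, and their positions along the genes were not used. In most members with both kinds of probe set, those at least 2-fold higher had lower median log2 values than the others. Slc2a3, Eno1 and Ankrd37 were the exceptions. In Fam162a the medians were 9.54 for the probe sets with the large rises and 10.99 for the others, and in Pdk1 8.67 and 10.63. A probe set's level depends on its own sequence, so levels are not compared here as amounts of RNA.

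**Figure D3:**
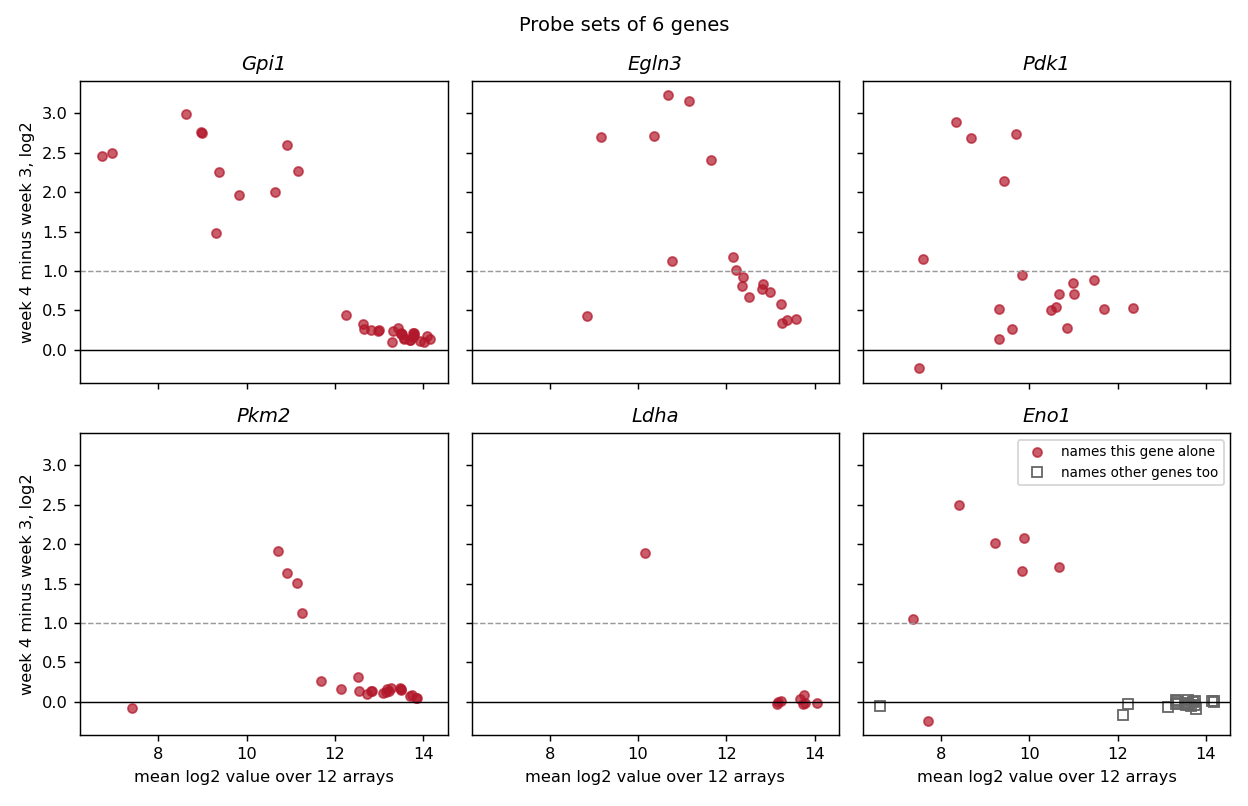
Each point is a probe set, with its mean log2 value over 12 arrays on the horizontal axis and its week 4 minus week 3 difference (log2) on the vertical axis, for 6 genes. Grey squares are the probe sets Eno1 shares with other gene models. Gpi1 splits into 11 probe sets above the dashed 2-fold line and 25 near 0.2, and the 22 shared Eno1 probe sets lie near 0.

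The hypoxia-inducible factors are known to bind the core of the hypoxia response element, which many of their targets carry near the start of the gene. Promoters of 6 members are printed to set that core beside the week differences: the 3 genes with the largest rises, Bnip3, and Ldha and Tpi1, which were not called. Each is a window of 300 bases, most of it before the start of the gene, from RefSeq on GRCm38.p6, 5′ to 3′ on the strand of the gene. Ddit4 lies at chr10:59951721-59952020 (minus strand), Fam162a at chr16:36071512-36071811 (minus strand), Ankrd37 at chr8:45999801-46000100 (minus strand) and Bnip3 at chr7:138909457-138909756 (minus strand). Ldha lies at chr7:46845554-46845853 (plus strand, the first of its promoters in the table) and Tpi1 at chr6:124814109-124814408 (minus strand). Capitals mark ACGTG or GCGTG on either strand, which on the printed strand can also read CACGT or CACGC.
Ddit4: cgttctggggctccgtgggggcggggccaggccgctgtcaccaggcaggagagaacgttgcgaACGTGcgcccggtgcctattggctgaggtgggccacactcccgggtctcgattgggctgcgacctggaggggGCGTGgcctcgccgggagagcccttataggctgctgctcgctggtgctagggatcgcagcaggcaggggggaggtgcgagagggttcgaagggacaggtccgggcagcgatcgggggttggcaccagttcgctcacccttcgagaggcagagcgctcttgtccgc
Fam162a: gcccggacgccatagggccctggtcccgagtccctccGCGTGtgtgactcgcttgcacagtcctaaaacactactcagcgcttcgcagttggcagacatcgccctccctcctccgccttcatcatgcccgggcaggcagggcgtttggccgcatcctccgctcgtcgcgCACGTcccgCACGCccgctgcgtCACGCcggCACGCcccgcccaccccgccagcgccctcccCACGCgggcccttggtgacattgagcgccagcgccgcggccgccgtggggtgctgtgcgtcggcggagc
Ankrd37: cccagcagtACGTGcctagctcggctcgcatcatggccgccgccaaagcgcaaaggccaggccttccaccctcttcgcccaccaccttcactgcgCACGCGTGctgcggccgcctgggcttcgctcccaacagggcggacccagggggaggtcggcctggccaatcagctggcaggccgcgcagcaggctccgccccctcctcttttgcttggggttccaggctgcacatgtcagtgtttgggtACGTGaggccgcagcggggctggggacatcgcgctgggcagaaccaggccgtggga
Bnip3: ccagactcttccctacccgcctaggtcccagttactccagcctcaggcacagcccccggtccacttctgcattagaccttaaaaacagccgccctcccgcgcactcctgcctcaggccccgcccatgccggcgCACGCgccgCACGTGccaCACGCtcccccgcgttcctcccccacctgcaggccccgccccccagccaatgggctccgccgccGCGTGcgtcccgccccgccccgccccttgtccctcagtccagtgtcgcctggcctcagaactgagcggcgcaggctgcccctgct
Ldha: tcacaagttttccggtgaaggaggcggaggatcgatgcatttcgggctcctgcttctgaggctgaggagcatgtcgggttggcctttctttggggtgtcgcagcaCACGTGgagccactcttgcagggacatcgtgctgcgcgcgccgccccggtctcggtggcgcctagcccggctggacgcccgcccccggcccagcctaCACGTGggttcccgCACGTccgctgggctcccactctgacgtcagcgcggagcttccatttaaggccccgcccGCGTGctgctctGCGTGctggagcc
Tpi1: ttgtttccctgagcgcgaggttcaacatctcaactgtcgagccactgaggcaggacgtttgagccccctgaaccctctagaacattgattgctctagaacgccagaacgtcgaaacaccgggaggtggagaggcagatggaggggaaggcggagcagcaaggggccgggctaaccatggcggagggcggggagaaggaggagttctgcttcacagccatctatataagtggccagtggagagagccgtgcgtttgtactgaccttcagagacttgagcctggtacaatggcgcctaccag

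Counting matches on both strands, Ddit4 had 2, Fam162a 6, Ankrd37 4, Bnip3 5, Ldha 7 and Tpi1 0. A CACGTG counts as 2 matches, 1 on each strand. Ldha held 2 such sites, Bnip3 1, and Ddit4, Fam162a and Ankrd37 held 0. The core was thus also present in Ldha, which had a week difference near 0. Of the 36 measured members 32 were in the promoter table, Pkm2 there as Pkm and Ero1l as Ero1a. The core was in 30 of them, against 46.7% of all 27025 genes in that table. By promoter it was in 37 of the members' 45 (82.2%), against 43.8% of all 32851 promoters of the same length. Some promoters of 1 gene overlap, and no base composition was matched. It was present in 25 of 26 members called higher at week 4 and in 5 of the 6 others, with Gpi1 and Tpi1 the exceptions. The palindrome CACGTG, which overlaps the core, was in 4 of 45 promoters (8.9%), against 7.2% of all. The letters TGACAG, a Meis motif, were in 6 of 45 (13.3%), against 19.2% of all promoters, with both strands read.

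Other genes of the pathway that are no members did not share one direction. Of 53 measured of 58 listed, 14 (26.4%) were higher and 17 lower at week 4, with a median of 0.01. Of all genes, 11.7% were called higher and 28.1% lower. The genes named below are examples, and some with larger differences are not among them. Ier3 had means of 10.08 at week 4 and 8.97 at week 3, and Car12 had 7.51 and 8.38. The weeks overlapped in Nt5e and Plod2. Nt5e, a surface enzyme that makes adenosine, was higher by 1.27 ± 0.21, Plod2, a collagen lysyl hydroxylase, by 0.95 ± 0.15, and Vhl, the ubiquitin ligase subunit that binds hydroxylated alpha subunits, by 0.53 ± 0.059. Called lower were Slc16a1, a lactate transporter, with a difference of -0.72 ± 0.057, Hif1an, which hydroxylates the alpha subunit on asparagine, with -0.57 ± 0.053, and Egln2, a prolyl hydroxylase, with -0.40 ± 0.039.

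Other lists also held genes called between the weeks. Of 11 proliferation genes 10 were lower at week 4, with list means of 10.43 to 10.80 per array at week 4 and 10.97 to 11.05 at week 3. Of 12 late neutrophil markers 5 were higher, with list means of 7.89 to 10.87 at week 4 and 8.12 to 10.33 at week 3, and 4 of 7 mast cell markers were lower, with list means of 7.89 to 8.22 at week 4 and 8.30 to 9.46 at week 3. The late neutrophil list showed no rise in HOXA9+MEIS1, with 7.89 and 8.22 at week 4 against 8.12 and 8.17 at week 3. In HOXA9+MDHD it read 9.54 and 10.17 against 9.07 and 8.41, and in HOXA9+MIY 10.87 and 10.66 against 10.17 and 10.33. The part of these lists in the week differences was not tested. In such bulk cultures more cells of a type and more RNA per cell cannot be told apart. Nor can the week be told apart from any handling shared by the arrays of a week.

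The week difference was compared between conditions to see whether Meis1 altered it. Its median over the 36 members was 0.62 in HOXA9+MEIS1, 0.75 in HOXA9+MDHD and 0.49 in HOXA9+MIY. No gene of the series was called in the interaction of week with HOXA9+MEIS1 against HOXA9+MIY, nor with HOXA9+MDHD against HOXA9+MIY (0% of 20711 each), by limma. At an unadjusted p under 0.05, 5 of 36 members passed for HOXA9+MEIS1, against 1343 of 20711 genes, and 10 of 36 for HOXA9+MDHD, against 997 of 20711. The HOXA9+MDHD interaction was positive in 35 of 36 members, with a median of 0.17, against 11342 of all genes and a median of 0.02. That of HOXA9+MEIS1 was positive in 25 of 36, with a median of 0.09, against 8994 of all genes and a median of -0.03. Both use the same HOXA9+MIY arrays. The lowest p was that of Higd1a in HOXA9+MDHD, where the week difference was 0.97 in HOXA9+MDHD, 0.53 in HOXA9+MEIS1 and 0.21 in HOXA9+MIY (interaction 0.77 ± 0.14, adjusted p = 0.649). Bhlhe40 had week differences of 1.18 in HOXA9+MEIS1, 0.86 in HOXA9+MDHD and 0.65 in HOXA9+MIY (interaction of HOXA9+MEIS1 with HOXA9+MIY 0.53 ± 0.14, adjusted p = 0.501). Each condition had 2 arrays per week, and no single member's interaction passed the adjusted threshold.

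Setting HOXA9+MEIS1 against HOXA9+MIY addresses the effect of full-length Meis1 on top of Hoxa9. Of the 36 members 4 were called, 2 higher and 2 lower, which is 11.1% of members against 10.8% of all genes (5.29% higher, 5.56% lower). The members' median difference was 0.03, against -0.01 over all genes, and 9 of 36 members had an unadjusted p under 0.05, against 4567 of the 20711 genes. No glycolytic enzyme, glucose transporter or prolyl hydroxylase was called. The comparison shares its HOXA9+MIY arrays with that of HOXA9+MDHD.

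Hif1a read 12.15 and 12.22 at week 4 and 12.09 and 12.02 at week 3 in HOXA9+MEIS1, against 11.93 and 11.88 at week 4 and 11.87 and 11.89 at week 3 in HOXA9+MIY. All 4 HOXA9+MEIS1 arrays stood above all 4 HOXA9+MIY arrays. The difference was 0.23 ± 0.049 (1.17-fold, adjusted p = 0.00843), and it remained called without each array in turn, though not on the week 3 arrays alone or without the week term. In HOXA9+MDHD, Hif1a read 12.07 and 11.95 at week 4 and 11.79 and 11.74 at week 3, so at week 4 its arrays lay between those of the other conditions, and the week 3 arrays were the lowest of all 12. HOXA9+MEIS1 was higher than HOXA9+MDHD by 0.23 ± 0.049 (adjusted p = 0.0168), a call lost without HOXA9+MEIS1 week 3 replicate 1 or without its week 4 replicate 2.

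**Figure D4:**
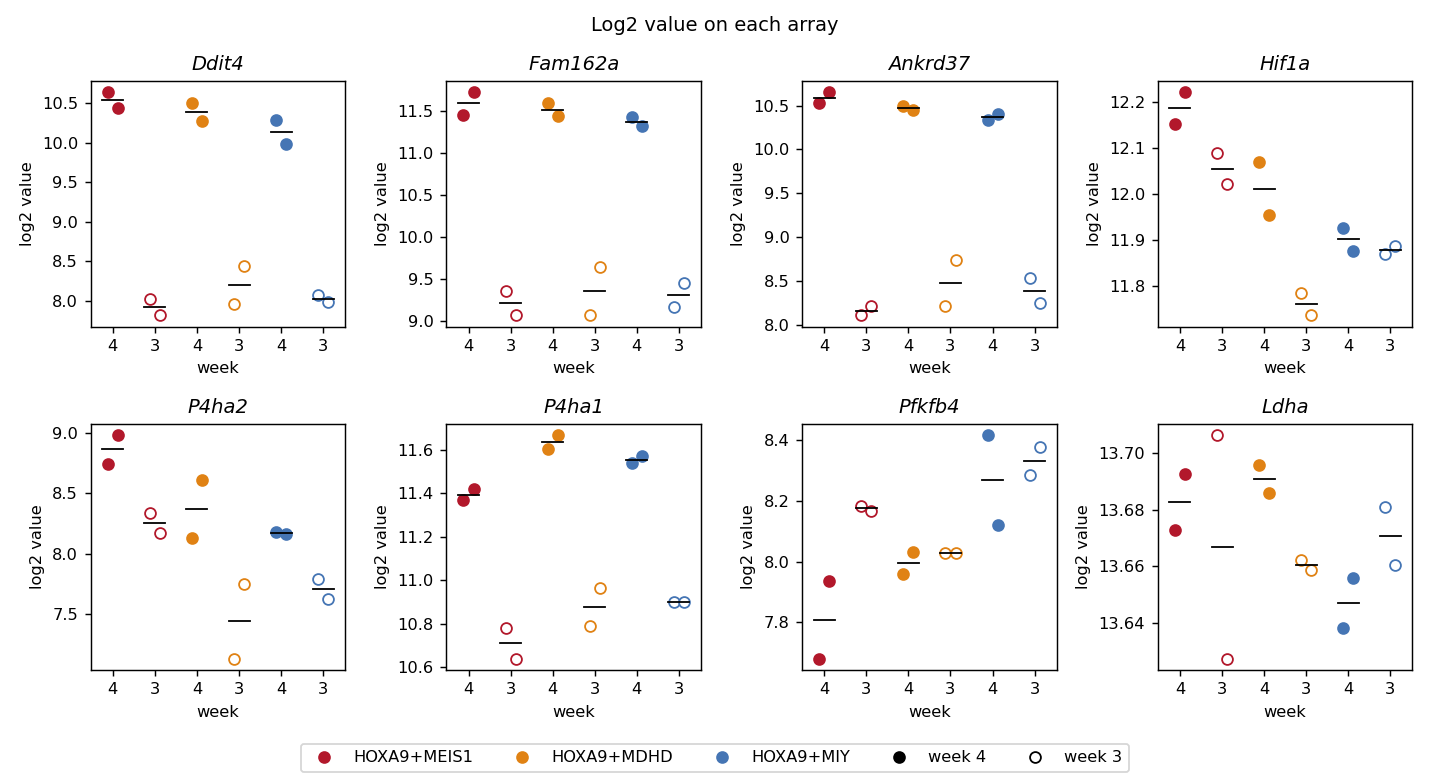
Log2 value of 8 genes on each of 12 arrays, by condition (red HOXA9+MEIS1, orange HOXA9+MDHD, blue HOXA9+MIY) and week (filled 4, open 3), with black lines at the mean of 2 arrays. Ddit4, Fam162a and Ankrd37 separate by week in every condition, Hif1a stands higher on all HOXA9+MEIS1 arrays than on all HOXA9+MIY arrays, and Ldha spans under 0.1 log2 units in all.

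P4ha2 read 8.75 and 8.98 at week 4 and 8.34 and 8.17 at week 3 in HOXA9+MEIS1, 8.13 and 8.61 at week 4 and 7.13 and 7.75 at week 3 in HOXA9+MDHD and 8.18 and 8.17 at week 4 and 7.79 and 7.62 at week 3 in HOXA9+MIY. Within each week the HOXA9+MEIS1 arrays were above the HOXA9+MIY arrays. HOXA9+MEIS1 exceeded HOXA9+MIY in P4ha2 by 0.62 ± 0.15 (1.54-fold, adjusted p = 0.0162) and HOXA9+MDHD by 0.66 ± 0.15 (adjusted p = 0.0245). The first call was lost without either HOXA9+MIY array of week 4, without HOXA9+MEIS1 week 3 replicate 1 or without HOXA9+MEIS1 week 4 replicate 2. The second was lost without HOXA9+MEIS1 week 3 replicate 1 or 2, without HOXA9+MEIS1 week 4 replicate 2 or without HOXA9+MDHD week 4 replicate 1.

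P4ha1, the sister subunit, went the other way. It read 11.37 and 11.42 at week 4 and 10.78 and 10.64 at week 3 in HOXA9+MEIS1, 11.60 and 11.67 at week 4 and 10.79 and 10.96 at week 3 in HOXA9+MDHD and 11.54 and 11.57 at week 4 and 10.90 and 10.90 at week 3 in HOXA9+MIY. It was lower in HOXA9+MEIS1 than in HOXA9+MIY (-0.18 ± 0.050, adjusted p = 0.0430) and than in HOXA9+MDHD (-0.20 ± 0.050, adjusted p = 0.0400). Pfkfb4 read 7.68 and 7.93 at week 4 and 8.18 and 8.17 at week 3 in HOXA9+MEIS1, 7.96 and 8.03 at week 4 and 8.03 and 8.03 at week 3 in HOXA9+MDHD and 8.42 and 8.12 at week 4 and 8.29 and 8.38 at week 3 in HOXA9+MIY. It was lower in HOXA9+MEIS1 than in HOXA9+MIY (-0.31 ± 0.090, adjusted p = 0.0460). Both calls against HOXA9+MIY lie near the threshold, and each was lost without any 1 of the 4 HOXA9+MIY arrays and without HOXA9+MEIS1 week 3 replicate 2 or either HOXA9+MEIS1 array of week 4. That of Pfkfb4 was also lost without replicate 1 of HOXA9+MDHD at either week. Over all 28 alternatives, the call of P4ha1 against HOXA9+MDHD was kept in 10. Among fits with 1 array left out, it held only without HOXA9+MEIS1 week 3 replicate 1 or HOXA9+MDHD week 3 replicate 1. The count of 4 fell to 1 without either HOXA9+MIY array of week 4 or without HOXA9+MEIS1 week 4 replicate 2, and to 2 without either HOXA9+MIY array of week 3, HOXA9+MEIS1 week 3 replicate 2 or HOXA9+MEIS1 week 4 replicate 1. The largest differences that did not pass were those of Eno1 (0.34 ± 0.13, adjusted p = 0.129) and Higd1a (0.29 ± 0.13, adjusted p = 0.199).

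HOXA9+MDHD against HOXA9+MIY asks the same of Meis1 without its homeodomain. No member was called by limma, against 1.91% of all genes (0.908% higher, 1% lower), and 3 of 36 members had an unadjusted p under 0.05, against 2770 of the 20711 genes. The largest differences were those of Pfkfb4 (-0.29 ± 0.090, adjusted p = 0.145) and Slc2a3 (-0.25 ± 0.10, adjusted p = 0.297). Slc2a3 read 12.97 and 13.07 at week 4 and 11.66 and 11.19 at week 3 in HOXA9+MDHD, against 13.07 and 13.09 at week 4 and 11.89 and 11.85 at week 3 in HOXA9+MIY, so week 3 replicate 2 of HOXA9+MDHD was the lowest of all. Hif1a differed by -0.0035 ± 0.049 with a 95% interval of -0.11 to 0.10.

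HOXA9+MEIS1 against HOXA9+MDHD asks what the homeodomain adds. Of the 36 members 3 were called, Hif1a and P4ha2 higher and P4ha1 lower, against 4.36% of all genes (2.24% higher, 2.11% lower), and 9 of 36 had an unadjusted p under 0.05, against 3184 of the 20711 genes. The count was 0 without HOXA9+MEIS1 week 4 replicate 2, 1 without either HOXA9+MEIS1 array of week 3 or HOXA9+MDHD week 4 replicate 1, and 5 without HOXA9+MDHD week 4 replicate 2. The largest differences that did not pass were those of Adm (-0.41 ± 0.22, adjusted p = 0.438) and Slc2a3 (0.32 ± 0.10, adjusted p = 0.125). Adm read 7.10 and 7.04 at week 4 and 6.11 and 6.00 at week 3 in HOXA9+MEIS1, against 7.16 and 8.00 at week 4 and 5.93 and 6.81 at week 3 in HOXA9+MDHD, and its HOXA9+MDHD arrays of replicate 2 were the highest of the 6 at each week.

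**Figure D5:**
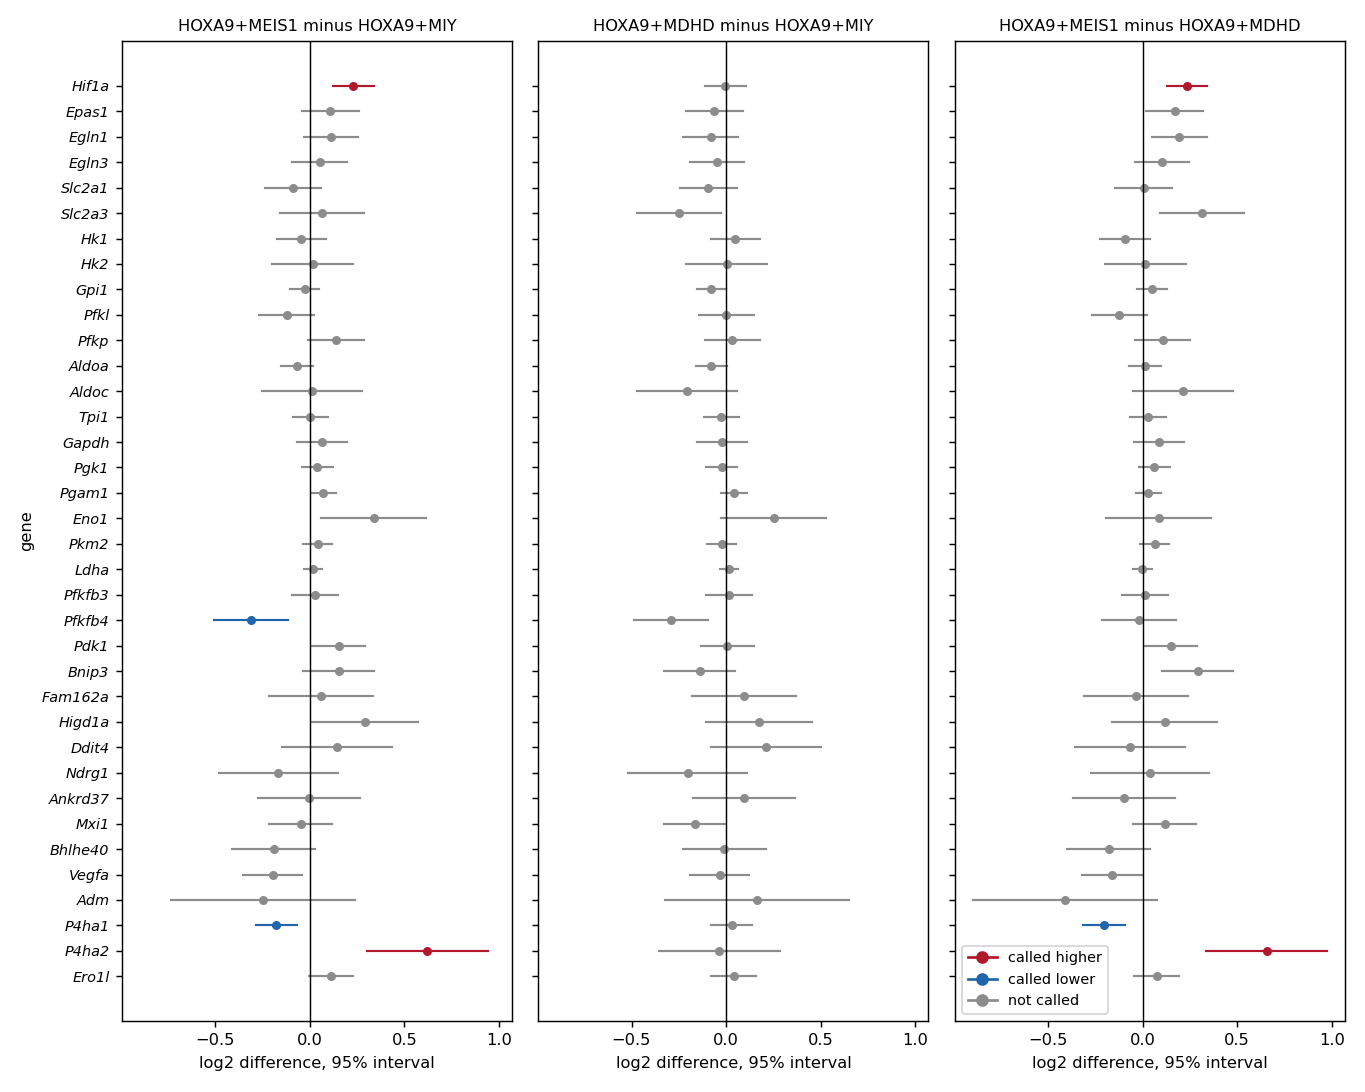
Log2 differences between conditions for 36 genes, with points for limma's estimate over 12 arrays and lines for its 95% interval, in panels for HOXA9+MEIS1 minus HOXA9+MIY, HOXA9+MDHD minus HOXA9+MIY and HOXA9+MEIS1 minus HOXA9+MDHD. Most intervals cross 0. Hif1a and P4ha2 are red in the first and last panels, P4ha1 is blue in both, and Pfkfb4 is blue in the first.

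Among the 53 other pathway genes, 5 were higher and 3 lower in HOXA9+MEIS1 than in HOXA9+MIY. Nt5e was higher by 1.49 ± 0.26 and Pfkm, the muscle phosphofructokinase, by 0.44 ± 0.068. Car9, a carbonic anhydrase and a classic target of the pathway, was higher by 0.55 ± 0.15, and Stc2, a secreted glycoprotein, was lower, with a difference of -0.90 ± 0.19. Pfkm was also higher, and Plod1 lower, in HOXA9+MEIS1 than in HOXA9+MDHD, and none was called between HOXA9+MDHD and HOXA9+MIY (13 had an unadjusted p under 0.05, by limma).

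Markers of maturing cells differed between the conditions. All 12 late neutrophil markers and 9 of 12 monocyte markers were lower in HOXA9+MEIS1 than in HOXA9+MIY, and 6 of 10 progenitor markers were higher. The late neutrophil list averaged 7.89 to 8.22 per array in HOXA9+MEIS1, 8.41 to 10.17 in HOXA9+MDHD and 10.17 to 10.87 in HOXA9+MIY. The part of these cell differences in the calls of Hif1a, P4ha2, P4ha1 and Pfkfb4 was not tested.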

How the data were processed

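Per the labels, RNA was biotinylated with the WT Terminal Labeling Kit and each sample has 1 array. Per the submitters' processing notes, the authors used RMA in Affymetrix Expression Console, and versions are not given in the sources used here. What the authors deposited is a log2 value for each exon-level probe set (0 to 14.93, array medians 6.258 to 6.301), and the number of arrays limits their precision.

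Of 1256831 probe sets 318760 named 1 symbol. Those naming several (6684) or with no symbol listed (931387) were left out, as were those with a mean over the 12 arrays at or under 6.2592, the 50th percentile. Median polish joined the probe sets of a gene. A linear model with condition and week was fitted over 12 arrays with limma 3.58.1 in R 4.3.3 (eBayes with trend, two-sided, 8 residual degrees of freedom), and interactions of condition and week in a further fit with 6. Members called in a contrast, and the 2 largest differences not called, were named.

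Matched numbers (1 and 2 in the labels) had residual correlations of -0.315 to -0.0149 over 12 pairs, against -0.271 to 0.0472 for unmatched pairs of a week, and were not used as blocks. The fit was tested on simulated data. The members, roles and lists were chosen with earlier results of these data known. Nothing states that arrays come from separate animals, so p-values measure the spread between these arrays. Promoters came from RefSeq (GRCm38.p6), and plots were made with matplotlib 3.10.9 in Python 3.11.15. The alternatives covered filters, probe set summary, scaling, the test, blocks, the samples fitted and left-out arrays.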

Additional observations from a re-analysis of the deposited data

Results flagged for a closer look

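In 4 of the 180 groups of 4 or 6 arrays tested, 1 array stood far from the others of its group by Dixon's test. Chance flags about 1 in 20 groups only where the arrays of a group are of 1 kind. Here the groups of 4 held both weeks of a condition, and the groups of 6 held all conditions of a week. The count of 4 is thus not compared with that rate. None of the 4 genes flagged was called between the weeks. Hk1 read 10.8932 in HOXA9+MEIS1 week 4 replicate 2, above the 10.7957 to 10.8105 of the other HOXA9+MEIS1 arrays. Pfkfb4 read 7.9575 in HOXA9+MDHD week 4 replicate 1, below the 8.0281 to 8.0299 of the other HOXA9+MDHD arrays. Pfkl read 10.7506 in HOXA9+MIY week 3 replicate 2, below the 10.8403 to 10.8516 of the other HOXA9+MIY arrays. Gapdh read 12.8764 in HOXA9+MDHD week 3 replicate 2, below the 13.0702 to 13.1736 of the other week 3 arrays.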

How the results depend on the processing

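The 30 members called between the weeks were 29 to 33 under the alternatives and 30 to 31 with an array left out. Higd1a alone reversed, to -0.0737 under the stricter filter. Among all genes called at week 4, 29.5% were higher, 41.9% under median centring and 51.2% under cyclic loess. The 4 members called in HOXA9+MEIS1 against HOXA9+MIY were 2 without the trend, 2 with the replicate block, 0 without the week term, 0 on week 3 arrays, 2 on week 4 arrays and 1 to 4 with an array left out. The 3 called in HOXA9+MEIS1 against HOXA9+MDHD were 1 without the trend, 0 without the week term, 1 with the 2 conditions fitted alone, 1 on week 3 arrays, 0 on week 4 arrays and 0 to 5 with an array left out. The fits by week hold fewer arrays, and the cause of the other changes was not tested. HOXA9+MDHD against HOXA9+MIY stayed at 0 in all 28 alternatives and the HOXA9+MEIS1 interaction in all 24. Leaving out HOXA9+MDHD number 1 at both weeks, an alternative chosen after seeing the data, gave 1 in the HOXA9+MDHD interaction. With the replicate block the other counts were 0 in HOXA9+MDHD against HOXA9+MIY, 2 in HOXA9+MEIS1 against HOXA9+MDHD, 30 between weeks and 0 in each interaction.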
